A study of Mus musculus with 8 samples.

Results

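The genes described here are those of the mitochondrial respiratory chain and the ATP synthase that are encoded in the nucleus. They were taken by symbol from the annotation of the arrays, as all symbols that start with Nduf, Uqcr or Atp5, with Sdh followed by a, b, c or d, or with Cox4 to Cox8. This gave 94 of the 18193 named genes, each read from the brightest of its probe sets by the mean of the 8 arrays. Of these 94, 82 are subunits and 12 are assembly factors (Ndufaf1 to Ndufaf8 and Sdhaf1 to Sdhaf4), which help to build a complex but are not parts of it. With the assembly factors, and assigned by symbol, 44 belong to complex I, 8 to complex II, 8 to complex III, 17 to complex IV and 17 to the ATP synthase, complex V.

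The cells came from subcutaneous mouse tumours of the Lewis lung carcinoma line (LLC) and the colon carcinoma line colon26. Both lines stably carried EGFP driven by the mouse promoter of PSF1, the product of Gins1, a subunit of the GINS complex at replication forks, and FACS divided the dissociated tumours into EGFP-high and EGFP-low cells. LLC tumours were taken 4 weeks and colon26 tumours 2 weeks after inoculation. The 4 groups (LLC high, LLC low, colon26 high and colon26 low) had 2 Affymetrix arrays each, numbered 1 and 2. The labels do not say whether the arrays of a group came from separate tumours, nor how many clones made up a line, nor name the host strain, so p-values measure the spread among these arrays only.

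Complex I (NADH dehydrogenase, the Nduf genes) and complex II (succinate dehydrogenase, the Sdh genes) pass electrons to ubiquinone. Complex III (the Uqcr genes) passes them on to cytochrome c, and complex IV (cytochrome c oxidase, the Cox genes) to oxygen. Complexes I, III and IV pump protons across the inner mitochondrial membrane, and complex V (the Atp5 genes) uses their return to make ATP. Several of these genes are known targets of the transcription factors NRF1, GABP (an ETS factor), YY1 and ERR alpha, and the subunits encoded by mitochondrial DNA are made by the mitochondrial ribosome.

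The promoters of 4 of the genes described below are shown, so that motifs of these known regulators can be read in them. They are RefSeq windows of assembly GRCm38.p6, from 250 bases before to 50 bases after the gene's start. Matches to the NRF1 core GCGCANGC on either strand are in capitals, where overlapping matches run together. The Atp5g1 window is chr11:96075582-96075881 (minus strand), the Uqcrc1 window chr9:108936398-108936697 (plus strand), the Ndufa12 window chr10:94198785-94199084 (plus strand) and the Ndufaf5 window chr2:140170396-140170695 (plus strand).
Atp5g1: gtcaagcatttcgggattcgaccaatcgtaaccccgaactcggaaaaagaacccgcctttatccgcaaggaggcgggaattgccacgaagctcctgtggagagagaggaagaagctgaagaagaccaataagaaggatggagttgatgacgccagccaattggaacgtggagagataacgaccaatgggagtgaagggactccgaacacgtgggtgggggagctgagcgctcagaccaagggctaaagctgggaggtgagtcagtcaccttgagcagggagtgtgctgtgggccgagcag
Uqcrc1: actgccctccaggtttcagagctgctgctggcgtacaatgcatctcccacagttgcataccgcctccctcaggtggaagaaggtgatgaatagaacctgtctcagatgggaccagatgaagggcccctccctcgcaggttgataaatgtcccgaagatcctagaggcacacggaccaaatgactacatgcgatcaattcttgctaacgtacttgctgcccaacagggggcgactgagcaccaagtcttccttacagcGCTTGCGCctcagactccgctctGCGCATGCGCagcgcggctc
Ndufa12: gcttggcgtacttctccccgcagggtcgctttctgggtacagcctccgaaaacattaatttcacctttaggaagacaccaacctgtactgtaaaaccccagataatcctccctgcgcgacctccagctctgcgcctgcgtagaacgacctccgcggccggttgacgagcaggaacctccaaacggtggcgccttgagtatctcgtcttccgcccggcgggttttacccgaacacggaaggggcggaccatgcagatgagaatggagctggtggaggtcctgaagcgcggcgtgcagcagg
Ndufaf5: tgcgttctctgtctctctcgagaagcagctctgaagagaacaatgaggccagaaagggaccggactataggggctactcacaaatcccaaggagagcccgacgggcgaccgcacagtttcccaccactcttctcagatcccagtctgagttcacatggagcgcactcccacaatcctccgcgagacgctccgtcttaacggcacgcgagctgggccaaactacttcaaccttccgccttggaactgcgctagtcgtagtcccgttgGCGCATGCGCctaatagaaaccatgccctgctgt
The Uqcrc1 and Ndufaf5 windows held NRF1 core matches, and those of Atp5g1 and Ndufa12 held none of the 4 motifs searched. Of the 78 respiratory chain genes with a window in the table, 24 (30.8%) held the NRF1 core, against 13.4% of the windows of 17492 protein-coding genes. The ETS core CCGGAAG was in 21 (26.9%, against 11.9%), the YY1 core AAGATGGC in 9 (11.5%, against 3.22%) and the ERR core AAGGTCA in 8 (10.3%, against 4.08%), each on either strand, and matches of different motifs may overlap. Atp5k, Atp5l and Sdhd, subunits of complexes V and II, held 3 of the 4 motifs each. A match is only a run of letters and not a measured binding site.

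Signal is given as the deposited log2 value of a probe set. The probe sets of 88 of the 94 genes lay above a log2 value of 5 on at least 2 arrays and were tested among 12177 genes. The genes with the highest mean in each complex were Ndufb11, Ndufa1 and Ndufa13 in complex I (11.15 to 12.02 over their 24 values), Sdhb, Sdha and Sdhd in complex II (9.37 to 11.53), Uqcrb, Uqcrh and Uqcrc2 in complex III (9.60 to 13.53), Cox6a1, Cox5b and Cox6b1 in complex IV (11.86 to 13.08), and Atp5g3, Atp5c1 and Atp5pb in complex V (11.52 to 12.97). These ranges say that the probe sets were bright, and not how many transcripts each gene had, since probe sets differ in affinity.

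The 6 genes that were not tested were 5 complex IV isoforms and Ndufb4. Cox4i2, the isoform of subunit 4 that is induced by low oxygen in lung and other tissues, had log2 values of 4.50 to 4.97. Cox7a1, the heart and muscle isoform of subunit 7a, had 3.58 to 4.42. Cox8b, the muscle isoform of subunit 8, was above 5 on 1 array only, the second colon26 low array (5.75), and Cox6b2, the testis isoform of subunit 6b, was likewise above 5 only there (5.19). Cox7b2, an isoform of subunit 7b, had 3.23 to 3.79. The isoforms found in most tissues, Cox4i1 (11.60 to 12.72), Cox6b1 (11.86 to 12.81) and Cox7a2 (11.74 to 12.40), were far above the filter on every array. The probe set that names Ndufb4 alone had 3.46 to 3.90, whereas 2 probe sets shared by Ndufb4 and its copies Ndufb4b and Ndufb4c were left out of the tests and are described at the end.

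The arrays numbered 1 and 2 differed in every group, and some respiratory chain genes differed strongly. For control transcripts, the log2 signal of 3′ minus 5′ probe sets (median), a measure of how complete the labelled RNA was, was 2.41 to 2.70 on the 4 arrays numbered 1 and -0.01 to 0.35 on the 4 numbered 2. For the 88 respiratory chain genes the median absolute difference between the arrays of a group was 0.48, against 0.21 between EGFP-high and EGFP-low arrays of the same line and number. For all genes tested these medians were 0.44 and 0.24, so the typical respiratory chain gene was close to the typical gene. Uqcrc1, a core subunit of complex III, was higher on the array numbered 2 by 3.97 in LLC high, 3.70 in LLC low, 3.65 in colon26 high and 4.21 in colon26 low. Cox8a, the common isoform of subunit 8, was higher there by 2.86 to 3.22 in the 4 groups. Cox7c, a small subunit of complex IV, went the other way, by -1.68 to -1.30. Of the 88 genes, 15 (17.0%) were more than 1 log2 unit higher on the array numbered 2 in all 4 groups, against 6.26% of all genes tested, and these included Atp5a1, Atp5b, Atp5g1, Atp5g2 and Atp5l of complex V. Only Cox7c was more than 1 lower in all 4 groups (1.14%, against 0.821%).

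**Figure D1:**
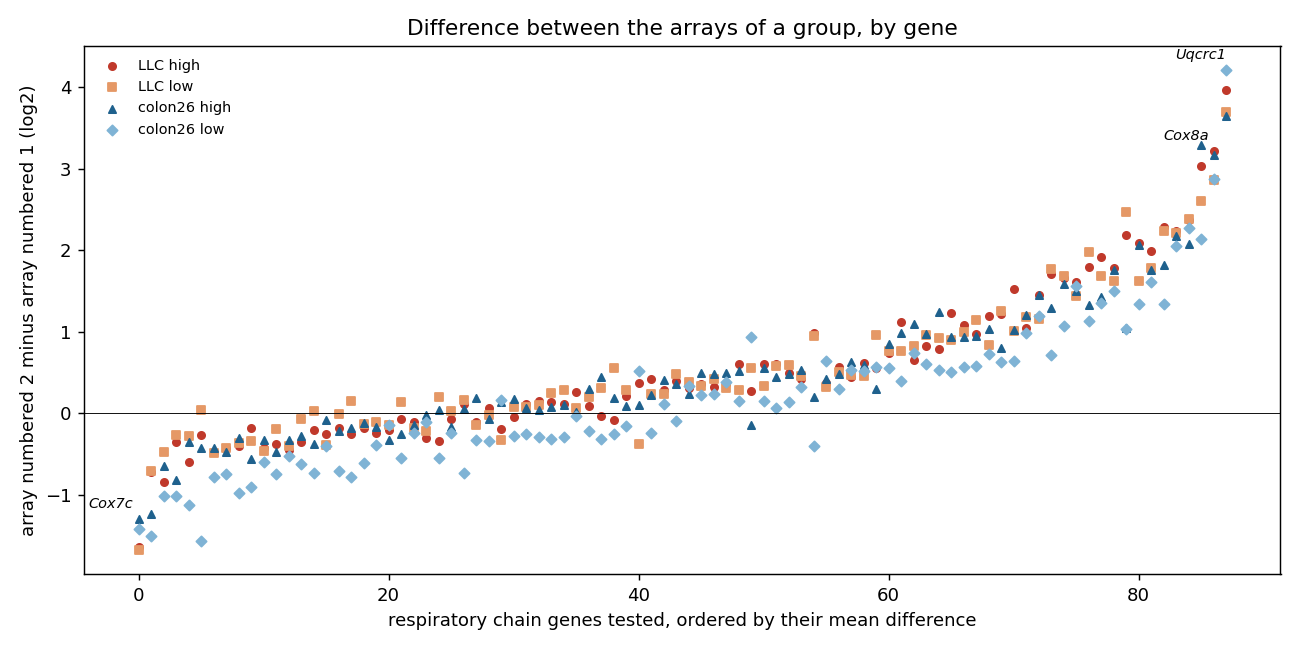
Log2 signal on the array numbered 2 minus that on the array numbered 1, for each of the 88 respiratory chain genes tested, with 1 point for each of the 4 groups; genes run from the lowest to the highest mean difference. Genes run from Cox7c at -1.68 to -1.30 up to Uqcrc1 at 3.65 to 4.21. The 4 points of some genes lie further apart, such as those of Atp5e, from 0.71 in colon26 low to 1.77 in LLC low.

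EGFP-high and EGFP-low arrays were therefore compared as pairs of the same line and number. The words rose and fell are used where limma, with the pair as a block, gave a Benjamini-Hochberg adjusted p under 0.05 over all 12177 genes. Changes are log2 differences, high minus low. Gins1, whose promoter drove the sort, had 8.42 and 8.51 in LLC high and 7.23 and 7.14 in LLC low, a rise of 1.28 (SE 0.21, adjusted p = 0.0033, limma). In colon26 it had 8.29 and 8.38 in high and 7.56 and 6.97 in low cells, a rise of 1.07 (SE 0.21, adjusted p = 0.017, limma). The high arrays lay above the low arrays in both lines.

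The first question was which respiratory chain genes differed between EGFP-high and EGFP-low cells of LLC tumours. Atp5g1 rose and no other of the 88 genes passed the test, so 1.14% were called, against 11.0% of all genes tested. Atp5g1 encodes the c subunit, of which the rotating ring of the ATP synthase is made, as do Atp5g2 and Atp5g3 (Entrez gene 11951). It had log2 values of 8.23 and 10.47 in LLC high and 7.48 and 9.70 in LLC low cells. The first and second high arrays each lay above the low array of their own number, but the groups overlapped because of the gap between the numbers. The change was 0.76 (SE 0.18, adjusted p = 0.021, limma), or 1.69-fold, and 0.75 and 0.77 in the single pairs. Since its groups overlap, Atp5g1, like Uqcrc1 and Ndufaf6 below, was named after its values were seen. Without either LLC pair the change was 0.77 or 0.75 and the call was lost (adjusted p = 0.26 and 0.42), but that change then rests on 1 pair, with the spread taken from the colon26 pairs. In addition, the only other probe set of the gene was below the filter.

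The other c subunit genes did not pass in LLC. Atp5g2 had 9.72 and 11.71 in high and 9.48 and 11.26 in low cells (change 0.35, adjusted p = 0.26), and Atp5g3 12.71 and 12.78 in high and 12.53 and 12.51 in low cells (change 0.23, adjusted p = 0.50), in the same limma fit. The changes of all 17 complex V genes lay above 0, from 0.02 to 0.76, with a median of 0.23. Atp5a1, the catalytic-head subunit alpha, had a change of 0.48 (adjusted p = 0.12, limma) and Atp5b, subunit beta, 0.30 (adjusted p = 0.36).

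In complex III the median change in LLC was 0.34 over 8 genes, 6 of them above 0. The values nearest to the threshold were those of Uqcr10 (0.55, adjusted p = 0.076), a small subunit, of Uqcr11 (0.50) and of Uqcrfs1, the Rieske iron-sulphur protein (0.51). Uqcrh, the hinge protein, had a change of -0.29. In complex I, 24 of 35 subunits were above 0 with a median of 0.22. The highest value there was that of Ndufa9 (0.55, adjusted p = 0.083), a subunit at the junction of the membrane arm and the matrix arm, and the lowest was that of Ndufa6 (-0.41). In complex II the 4 subunits had changes of 0.08 to 0.46 with a median of 0.24.

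Complex IV had the lowest median in LLC, 0.08 over 12 genes with 9 above 0. Cox5a, which with Cox4i1 and Cox5b is among the nuclear-encoded subunits around the catalytic core, had the highest value (0.27). Cox7a2l, which takes part in joining complexes III and IV into supercomplexes, had the lowest value of all 88 genes, -0.45 (adjusted p = 0.14, limma), with 11.26 and 10.96 in high and 11.66 and 11.44 in low cells. Both high arrays of Cox7a2l lay below both low arrays. Ndufa4, now known as a subunit of complex IV, and its hypoxia-induced paralogue Ndufa4l2 are counted here in complex I, after their symbols. Ndufa4 had a change of 0.49 (adjusted p = 0.15, limma), and Ndufa4l2 had -0.19 on values of 5.35 to 5.96.

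Over the 88 genes, 70 changes were above 0 in LLC (79.5%), against 55.4% of all genes tested. The median change was 0.18, against 0.04 for all genes tested, and the range was -0.45 to 0.76. The SE of a single change was 0.18 to 0.26, so the median change was about the size of 1 SE, and 13 of the 88 had an unadjusted p under 0.05. The share of all genes under that p was not counted. This count and the unadjusted counts below therefore do not say whether the 88 genes differ from other genes. The shares and medians describe the genes and were not tested.

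In colon26 none of the 88 genes passed (0%, against 3.77% of all genes tested, limma), and 3 had an unadjusted p under 0.05. The 5 genes with the smallest p were Ndufb2 (change 0.56, adjusted p = 0.17), Uqcrc1 (0.53, 0.22), Sdhaf3 (0.66, 0.22), Ndufaf2 (0.46, 0.32) and Ndufaf5 (0.38, 0.35). The other, dimmer probe sets of Ndufb2 had colon26 changes of 0.10 and -0.17. Sdhaf3, an assembly factor of complex II, had 6.65 and 6.22 in high and 6.55 and 4.99 in low cells. Its difference came almost wholly from the second pair (1.23, against 0.10 in the first). Atp5g1 had 8.32 and 10.49 in colon26 high and 8.21 and 10.26 in colon26 low cells, a change of 0.17 (SE 0.18, adjusted p = 0.66, limma).

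The colon26 changes had a median of 0.11, against 0.08 for all genes tested, and 71 of 88 were above 0 (80.7%, against 61.6%). This direction did not hold under quantile normalization, where the median was -0.01 for the respiratory chain genes and -0.01 for all genes. With a filter of 7, which keeps brighter genes, the median was 0.12 for 85 respiratory chain genes, below the 0.15 of all genes. The colon26 changes therefore did not exceed those of other bright genes. By complex, the median was 0.07 in complex I, 0.20 in complex II, 0.11 in complex III, 0.09 in complex IV and 0.13 in complex V, and it was 0.23 for the 12 assembly factors. The 2 colon26 pairs differed. The median over the 88 genes was -0.03 in the first pair (36 above 0) and 0.25 in the second (77 above 0), where all genes tested had 0.02 and 0.18. In LLC the medians were 0.19 in both pairs, against 0.05 and 0.03 for all genes.

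As the mean of both lines, Atp5g1, Uqcrc1 and Ndufaf6 rose and none fell, 3.41% of the 88 genes, against 13.0% of all genes tested. Uqcrc1 (Entrez gene 22273), whose promoter with NRF1 core matches is printed above, had 7.61 and 11.58 in LLC high, 7.25 and 10.95 in LLC low, 7.18 and 10.83 in colon26 high, and 6.37 and 10.58 in colon26 low cells. Each high array lay above the low array of its own line and number, while arrays numbered 1 and 2 were far apart. The mean change was 0.51 (SE 0.14, adjusted p = 0.039, limma), with 0.50 in LLC and 0.53 in colon26, or 1.43-fold.

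Ndufaf6 encodes an assembly factor of complex I and lies on chromosome 4. It had 8.29 and 8.10 in LLC high and 7.72 and 7.38 in LLC low cells, and 7.35 and 6.80 in colon26 high and 7.19 and 6.29 in colon26 low cells. In LLC both high arrays lay above both low arrays, and in colon26 the groups overlapped. The mean change was 0.49 (SE 0.13, adjusted p = 0.035, limma), or 1.40-fold, with 0.64 in LLC (adjusted p = 0.052) and 0.34 in colon26 (adjusted p = 0.39). Atp5g1 had a mean change of 0.46 (SE 0.12, adjusted p = 0.034, limma), which was 0.22 with the mean of its probe sets and no longer called (adjusted p = 0.20). All 3 calls were lost when any one of the 4 pairs was left out (adjusted p = 0.052 to 0.31).

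Of the 88 genes, 73 had a mean change above 0 (83.0%, against 56.3% of all genes tested), and the median was 0.16, against 0.04. The median was 0.10 under quantile normalization (all genes 0.01) and 0.07 without the second colon26 pair (all genes 0.03). The high array lay above the low array in all 4 pairs for 30 genes (34.1%, against 21.4% of all genes tested). These 30 included 9 genes of complex V, among them Atp5a1, Atp5b, Atp5c1 and the 3 c subunit genes, and the complex II subunits Sdhb and Sdhd. The other, dimmer probe set of Atp5c1 went the other way in all 4 pairs, with changes of -0.35 in LLC and -0.34 in colon26. The high array lay below the low array in all 4 pairs for 4 genes (4.55%, against 9.28%), namely Cox7a2l, Cox7c, Ndufaf3 and Ndufv3. Their mean changes were -0.27, -0.30, -0.33 and -0.29, and none passed the test.

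**Figure D2:**
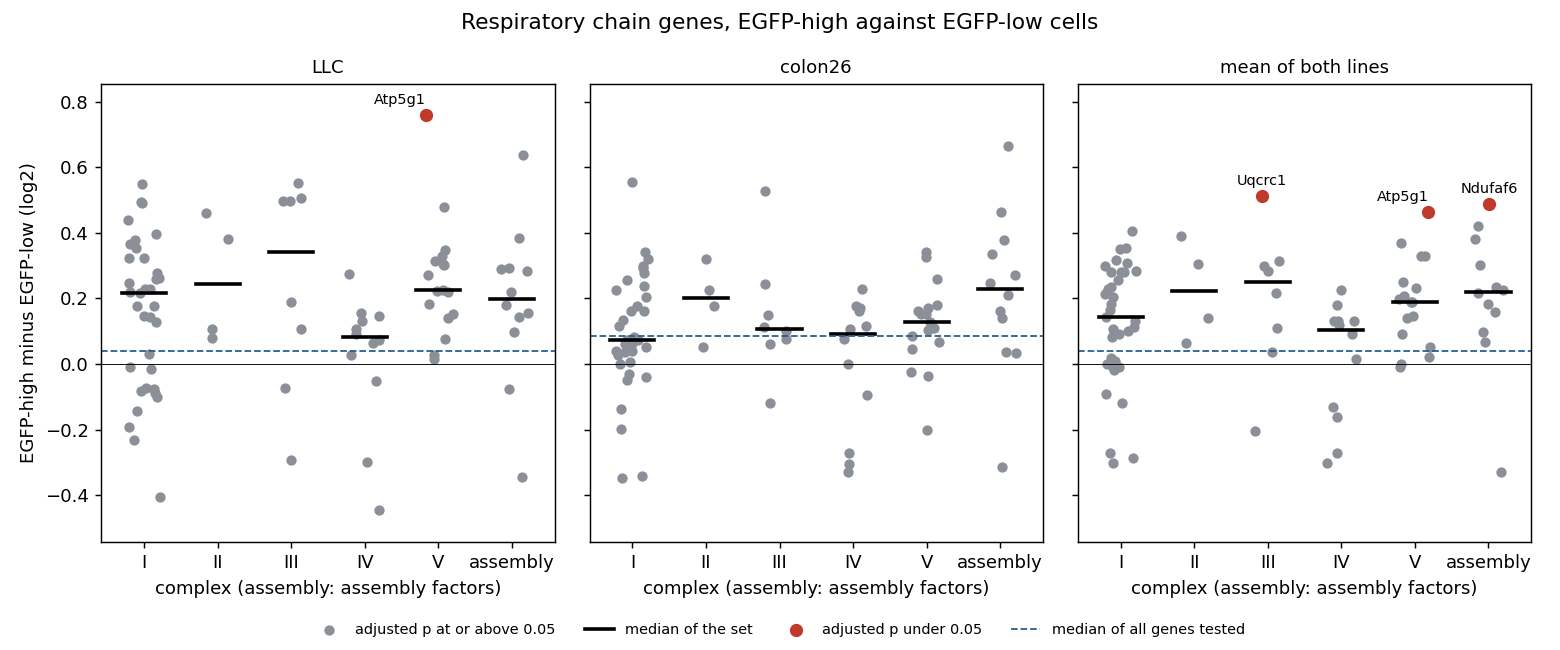
Change (EGFP-high minus EGFP-low, log2) of each of the 88 respiratory chain genes tested, by complex, with a panel each for LLC, colon26 and the mean of both lines; black bars are medians, the dashed line is the median of all genes tested and red points have an adjusted p under 0.05. Most points lie between 0 and 0.40, with Atp5g1 called in LLC at 0.76 and Uqcrc1, Ndufaf6 and Atp5g1 called in the mean of both lines at 0.46 to 0.51.

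Whether the change differed between the lines was tested as the LLC change minus the colon26 change. None of the 88 genes passed (0%, against 1.41% of all genes tested, limma), and 1 had an unadjusted p under 0.05. The 5 genes with the smallest p were Atp5g1 (0.59, SE 0.25, adjusted p = 0.32), Uqcr10 (0.47, adjusted p = 0.42), Uqcrfs1 (0.45), Ndufv2 (0.42) and Cox8c (0.39). The call of Atp5g1 in LLC and not in colon26 therefore does not show that its change differed between the lines.

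The remaining isoform pairs gave small differences with the sort. Cox6a1, the common isoform of subunit 6a, had changes of 0.03 in LLC and 0.00 in colon26, and Cox6a2, the heart and muscle isoform, had -0.05 and -0.27 on values of 6.32 to 7.44. Cox8a had 0.09 and 0.17 and Cox8c, an isoform known from testis, 0.06 and -0.33. Cox4i1 had 0.11 and 0.08, and Cox7a2 0.13 and 0.23. None of these passed in either line (limma).

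Among the 12 assembly factors the median change was 0.20 in LLC and 0.23 in colon26. Only Ndufaf6, 1 of the 12, passed in the mean of both lines, where 13.0% of all genes were called. Ndufaf5, which acts early in complex I assembly, had 0.38 in both lines, and Ndufaf4 0.29 in LLC and 0.16 in colon26. Ndufaf3 was the lowest, at -0.34 and -0.31. The other assembly factors of the 5 complexes, such as Surf1, Bcs1l and Atpaf1, were read as a separate list, of which 33 were tested. Their median change was 0.18 in LLC and 0.13 in colon26, and none passed in a single line (against 11.0% of all genes in LLC and 3.77% in colon26). Cox18, which inserts a subunit of complex IV into the membrane, rose in the mean of both lines (0.50, adjusted p = 0.040, limma). It was the only call there (3.03%, against 13.0%).

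Genes that serve the chain were read from lists chosen by function. Of 76 genes of the mitochondrial ribosome, 7 rose in LLC (9.21%, against 11.0% of all genes called) and none in colon26, and 12 rose in the mean of both lines (15.8%, against 13.0%), where their median was 0.31. These shares are near those of all genes. Mrps22 and Mrps25 of the small subunit led with mean changes of 0.70 (adjusted p = 0.0090) and 0.61 (adjusted p = 0.016), followed by Mrps5 (0.52) and Mrpl47 (0.54). Of 23 genes of protein import and membrane carriers, 2 rose in the mean of both lines (8.70%, against 13.0%), Timm8a1 (0.74, adjusted p = 0.0073), a chaperone of the intermembrane space, and Timm22 (0.50, adjusted p = 0.038), the channel for carrier proteins. All these p-values are from the same limma fit.

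Of 13 genes for ubiquinone synthesis and cytochrome c, 3 rose in the mean of both lines (23.1%, against 13.0% of all genes called). They were Coq7 (0.70, adjusted p = 0.010) and Coq6 (0.42, adjusted p = 0.050, just under the threshold before rounding), hydroxylases of ubiquinone synthesis, and Pdss2 (0.47, adjusted p = 0.035), which takes part in making the side chain. Cycs, cytochrome c, had a change of 0.45 (adjusted p = 0.056). Of 15 citric acid cycle genes only Idh3a (0.50, adjusted p = 0.032) rose (6.67% of the list), and Cs, citrate synthase, had 0.20 (adjusted p = 0.36). Of 15 regulators tested only Gabpb1, a subunit of GABP, rose (0.65, adjusted p = 0.0076), again 6.67%. Tfam, which packages and transcribes mitochondrial DNA, had 0.44 (adjusted p = 0.061), Nrf1 0.16 and Esrra 0.18, and Ppargc1a lay between 3.46 and 4.07 on all arrays. Of the subunits encoded by mitochondrial DNA only ND5 was on the arrays, with changes of 0.09 in LLC and 0.10 in colon26. In LLC alone, 2 import genes (Timm8a1 and Timm22, 8.70% of their list), Coq7 (7.69%) and Gabpb1 (6.67%) rose, and no citric acid cycle gene did. Of all genes tested, 11.0% were called in LLC and 3.77% in colon26. In colon26 alone none of the genes of these lists rose, and none fell in either line.

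Genes of mitosis and markers of several other cell types also differed with the sort, and their part in the changes of the respiratory chain was not tested. Of all genes tested, 11.0% were called in LLC and 3.77% in colon26, with median changes of 0.04 and 0.08. Of 17 mitosis genes, 17 rose in LLC and 16 in colon26, with medians of 1.91 and 1.71. Of 13 hypoxia-responsive genes, 6 fell in LLC, among them Ndrg1 (-1.45) and Ero1a (-1.21), with a median of -0.50, and 1 fell in colon26, Adm (-1.47), with a median of -0.00. Of 11 macrophage markers tested, 9 fell in LLC and 11 in colon26. The log2 of their summed signal was 9.35 and 9.31 in LLC high, against 11.33 and 11.11 in LLC low, and 9.46 and 8.97 in colon26 high, against 13.32 and 12.34 in colon26 low. Of 11 fibroblast markers, 9 fell in LLC and 5 in colon26, with a summed signal of 12.95 and 12.97 in LLC high, against 14.62 and 15.27 in LLC low, and of 14.81 and 14.92 in colon26 high, against 15.49 and 15.15 in colon26 low. Of 7 endothelial markers none fell in LLC and 3 in colon26, and of 3 neutrophil markers 3 fell in LLC and 2 in colon26. None of the 4 T and B cell, 5 pericyte and smooth muscle or 5 epithelial markers tested passed in either line. Of 2 adipocyte markers tested 1, Fabp4, which macrophages also express, fell in both lines (-1.89 in LLC and -5.12 in colon26), and the summed signal of 5 adipocyte markers was 5.98 and 5.91 in LLC high, against 6.85 and 6.23 in LLC low, and 6.64 and 6.72 in colon26 high, against 10.01 and 9.93 in colon26 low. Of the 5, Adipoq, Cidec and Lep never exceeded 5. In such bulk samples fewer cells of a type and less RNA per cell cannot be told apart.

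Markers of skeletal muscle, a tissue rich in mitochondria, and of red cells left little signal. Of 14 skeletal muscle markers, 7 never exceeded 5 and none of the 6 tested passed in either line, and the 3 erythroid markers never exceeded 5. Of 10 epithelial markers, 5 never exceeded 5 on any array. The keratins Krt8 (12.36 to 12.80 in LLC and 5.31 to 5.95 in colon26) and Krt18 (8.43 to 9.14 in LLC and 3.84 to 5.05 in colon26) were high in LLC. Krt20, an intestinal keratin, was high in colon26 (3.63 to 4.06 in LLC and 11.60 to 12.27 in colon26).

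The second question was which respiratory chain genes differed between LLC and colon26. Differences are LLC minus colon26, and the lines also differ in tumour age, so that line and age cannot be told apart. Macrophage markers differed too in EGFP-low cells, with a median of -1.62 and 4 of 11 lower in LLC (36.4%, against 14.0% of all genes called). In EGFP-high cells their median was -0.16 and 0 passed. The part of such other cells in the differences below was not tested. Without a block, 1 of 88 genes passed in EGFP-high cells (1.14%, against 11.3% of all genes tested, limma) and 2 in EGFP-low cells (2.27%, against 14.0%). Ndufa12 was higher in LLC in both sorts, and Ndufaf5 was lower in LLC in EGFP-low cells. In each of these comparisons 5 of the 88 had an unadjusted p under 0.05.

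Ndufa12, an accessory subunit of complex I (Entrez gene 66414), had 12.26 and 11.86 in LLC high and 10.24 and 9.93 in colon26 high cells. In EGFP-low cells it had 12.01 and 11.65 in LLC and 10.40 and 9.41 in colon26. All 4 LLC arrays lay above all 4 colon26 arrays. The difference was 1.97 in EGFP-high cells (SE 0.38, adjusted p = 0.022, limma), or 3.92-fold, and 1.92 in EGFP-low cells (adjusted p = 0.023), or 3.79-fold. In EGFP-high cells the call was lost without any one of the 4 arrays (adjusted p = 0.078 to 0.14), and in EGFP-low cells without either LLC array or the second colon26 array (0.073 to 0.13). Its other probe sets above the filter were higher in LLC too, but by different amounts, 1.72 in EGFP-high and 1.63 in EGFP-low cells for one and 0.55 and 0.42 for the other. With the mean of the gene's probe sets the difference in EGFP-high cells was 1.07 (adjusted p = 0.050, just above the threshold before rounding).

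Ndufaf5 (Entrez gene 69487) had 6.75 and 6.62 in LLC low and 8.07 and 7.46 in colon26 low cells, and 7.16 and 6.97 in LLC high and 8.20 and 8.08 in colon26 high cells. Both LLC arrays lay below both colon26 arrays in each sort. The difference was -1.08 in EGFP-low cells (SE 0.27, adjusted p = 0.049, limma) and -1.07 in EGFP-high cells (adjusted p = 0.057). The call in EGFP-low cells was lost after centring each array on its median (adjusted p = 0.090), and without either LLC array (0.18 and 0.22) or the first colon26 array (0.10).

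Arrays of the same number also deviated together across the lines (Pearson r of 0.740 to 0.838 over genes). With the number as a block shared by both lines, 20 of the 88 genes passed in EGFP-high cells (22.7%, against 39.2% of all genes tested), 14 of them higher and 6 lower in LLC. In EGFP-low cells 18 passed (20.5%, against 46.2%), 9 higher and 9 lower. Of these, 15 passed in both sorts with the same sign, 75.0% of the first list and 83.3% of the second. Both comparisons came from the same fit and used the same SE for a gene. The overlap among all genes tested was not counted, so this overlap cannot be read as particular to these genes. The 9 higher in LLC were Cox7c, Ndufa12, Ndufa5, Ndufaf4, Ndufaf6, Ndufb6, Ndufv3, Sdhaf3 and Uqcrc1, and the 6 lower in LLC were Cox4i1, Cox6c, Ndufa8, Ndufab1, Ndufaf5 and Ndufs4.

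These 15 genes came from complexes I to IV, with both signs in complexes I and IV, and none from complex V. Sdhaf3 had the largest difference after Ndufa12, 1.24 in EGFP-high and 1.73 in EGFP-low cells, where the second colon26 array was just below the filter (4.99). Cox7c, with 7.24 and 5.59 in LLC high and 5.95 and 4.65 in colon26 high cells, differed by 1.12 in EGFP-high cells and 1.11 in EGFP-low cells. Both second colon26 arrays of Cox7c lay below the filter (4.65 in high and 4.89 in low cells), as did its only other probe set. The groups of Cox7c overlap because of the gap between the numbers. Ndufa8, a subunit with conserved cysteine motifs, differed by -0.89 and -1.13, Cox6c, a small subunit of complex IV, by -0.90 and -0.81, and Ndufs4, a subunit whose loss causes complex I deficiency, by -0.85 and -0.77. The other Cox6c probe set differed by -0.30 and 0.14. A dim Ndufs4 probe set differed by 0.53 and 0.43, while the remaining ones were lower in LLC. Further probe sets above the filter gave 0.04 and 0.34 for Ndufab1 and 0.04 and -0.01 for Ndufb6. Those of Ndufa5 and Ndufaf4 were higher in LLC in both sorts.

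Over the 88 genes the median difference between the lines was 0.05 in EGFP-high and -0.01 in EGFP-low cells, against -0.09 and -0.07 for all genes tested. By complex, the medians in EGFP-high cells were 0.08 in complex I, 0.11 in complex II, -0.03 in complex III, -0.17 in complex IV and -0.05 in complex V. In EGFP-low cells they were -0.00, -0.04, -0.06, -0.14 and -0.04 in the same order. Among regulators, Tfam was higher in LLC by 1.31 in EGFP-high cells (adjusted p = 0.015) and by 1.02 in EGFP-low cells (adjusted p = 0.034, limma). Coq3, a methyltransferase of ubiquinone synthesis, was higher in LLC by 1.28 and 1.30 (adjusted p = 0.017 and 0.016).

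**Figure D3:**
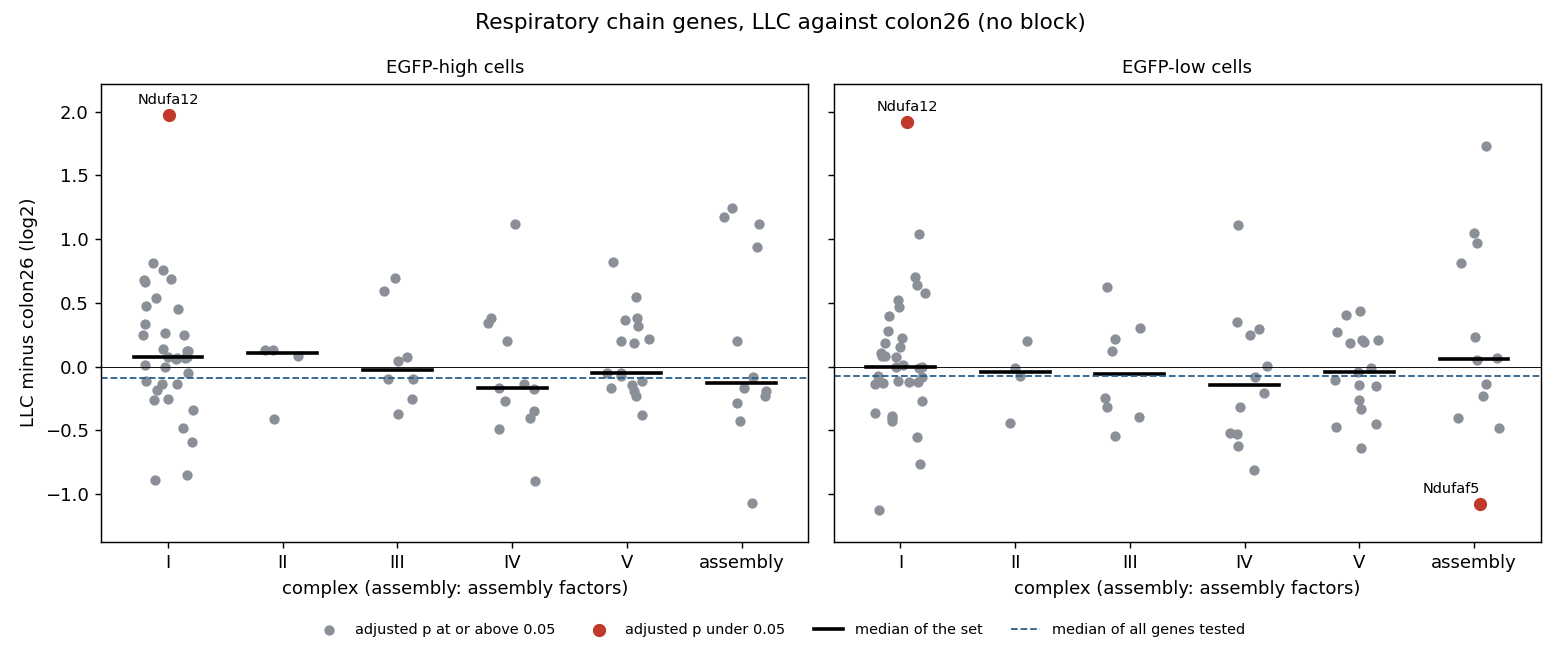
Difference between the lines (LLC minus colon26, log2) of each of the 88 respiratory chain genes tested, by complex, in EGFP-high and EGFP-low cells, from the fit without a block; black bars are medians, the dashed line is the median of all genes tested and red points have an adjusted p under 0.05. The medians of the complexes lie close to 0 while single genes differ by up to 1.97 (Ndufa12) and down to -1.13 (Ndufa8).

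**Figure D4:**
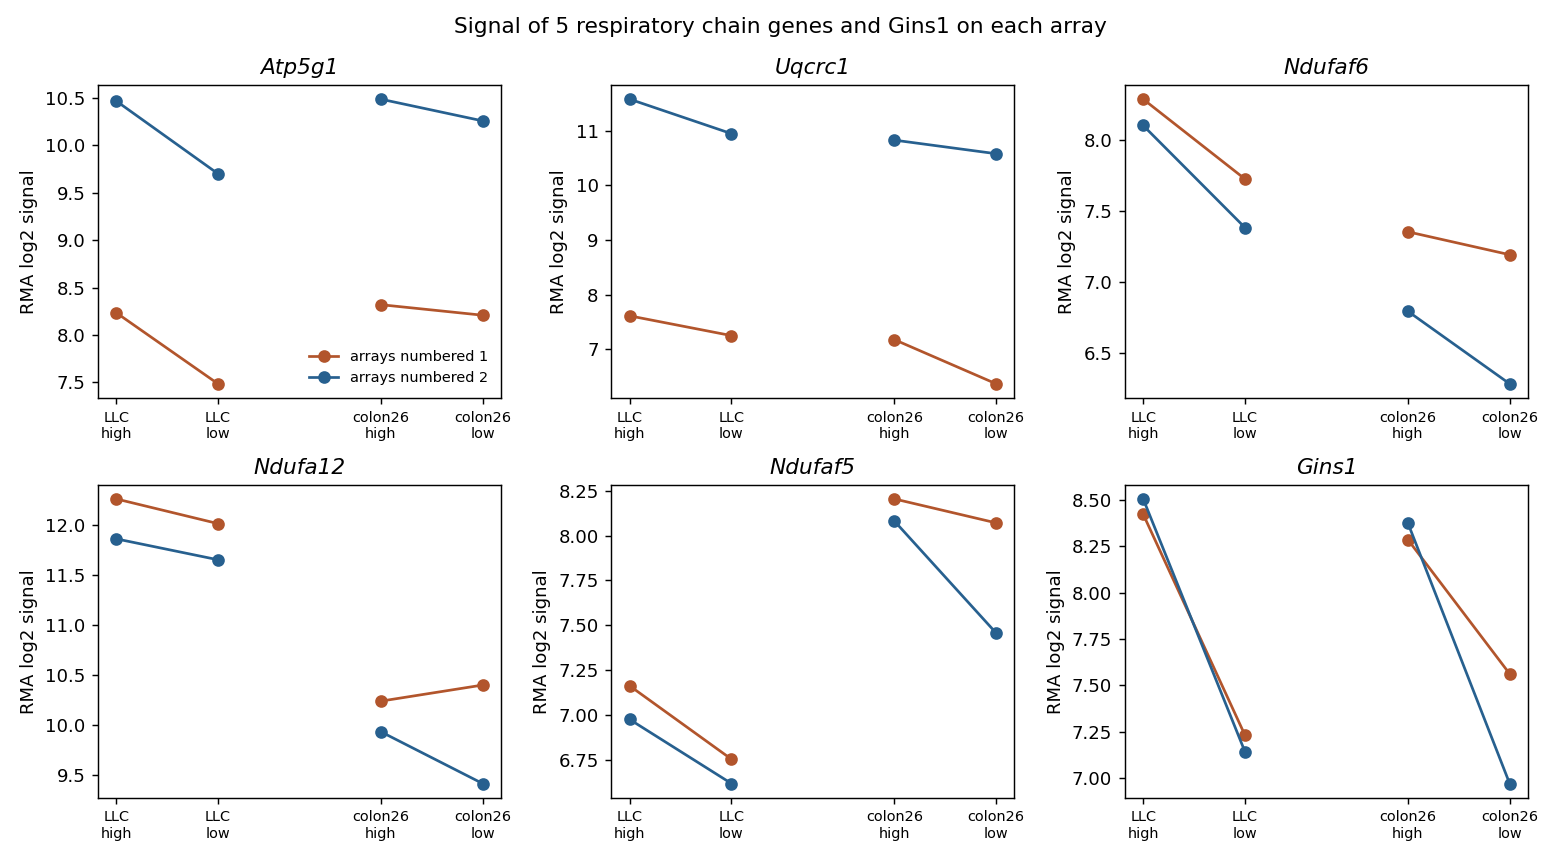
Log2 signal on each of the 8 arrays for the 5 respiratory chain genes called with the pair block (high against low) or without a block (LLC against colon26) and for Gins1, with lines joining EGFP-high and EGFP-low arrays of the same line and number. Atp5g1 and Uqcrc1 separate mainly by array number, Ndufa12 and Ndufaf5 by cell line, and Gins1 by sort.

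For the genes with several probe sets the direction of a change often depended on the probe set. Of 48 respiratory chain genes with several probe sets above the filter, all probe sets had the same sign for 37 in the LLC change and for 34 in the colon26 change. For the difference between the lines they had the same sign for 29 in EGFP-high and 24 in EGFP-low cells. Uqcrc1, Ndufaf5 and Ndufaf6 had 1 probe set each, so their values could not be compared in this way.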

How the data were processed

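Total RNA of the sorted cells was extracted with Trizol and 6 ug of it was labelled with biotin for 1-colour Affymetrix arrays, per the labels' protocols. The authors made the deposited log2 values with RMA, per the submitters' processing notes. Which software ran RMA, and over which arrays, is not given in the sources used here. Precision is limited by the number of arrays. The description field calls the colon26 samples LLC, and their titles, source and cell line fields were followed.

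Of 45101 probe sets, 34945 carried 1 gene symbol in the platform annotation, 932 several, 9160 none and 64 were controls. Only those with 1 symbol were used. All 94 respiratory chain genes matched RefSeq (GRCm38.p6). A further 8 symbols of the rule lay only on probe sets with several symbols. The members and gene lists were chosen with earlier results of these data known.

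Linear models were run in limma 3.58.1 under R 4.3.3 (lmFit, eBayes, Benjamini-Hochberg over 12177 genes at 0.05). EGFP-high against EGFP-low had the pair (line and number) as a block, since same-numbered arrays of a line deviated from their group means together (Pearson r of 0.838 and 0.888 over genes), with 2 residual degrees of freedom. LLC against colon26 used 4 group means with 4 residual degrees of freedom. The fits were tested on simulated data. Named were called genes whose arrays do not overlap between the groups, up to 12 in each direction, the 3 members of each complex with the highest mean, paralogous isoforms, assembly factors, the 5 smallest p where none was called, Gins1, and up to 4 called genes or the 2 with the highest mean of a list. Uqcrc1, Ndufaf6 and Atp5g1 as a called gene, other members quoted by complex, and the 15 called in both sorts were chosen once their values had been seen. The alternatives included a filter of 7 or none, quantile normalization, median centring, averaging the probe sets of each gene, the other choice of block, and leaving out each pair or array. Figures were drawn with matplotlib 3.10.9.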

Additional observations from a re-analysis of the deposited data

How the results depend on the processing

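Atp5g1, Uqcrc1, Ndufaf6, Ndufa12, Ndufaf5 and Gins1 were followed in the comparisons where they were called, and none changed direction under the alternatives run. The direction of the other named genes was not followed there, and it could differ between probe sets, as given above. The median change of the members in colon26, 0.11, was -0.01 with quantile normalization and -0.03 to 0.25 without a pair. The counts of 0 in colon26 and for the difference between the lines' changes stayed 0 in each. Without the replicate block, no member passed in LLC or in the mean of both lines (0 and 0, with 0 at an unadjusted p under 0.05), where the number of the array adds to the spread. In LLC, a filter of 7 and quantile normalization each gave 4 members in place of 1, namely Atp5g1, Ndufa9, Ndufaf6 and Uqcr10, and the mean of probe sets ended the call of Atp5g1 (0.36, adjusted p = 0.16, limma). Leaving out a pair gave 0 to 1 members in LLC and 0 to 1 in the mean of both lines, where the 1 was Sdhaf3 without the first colon26 pair. Uqcrc1 in the mean of both lines also lost its call with no filter (adjusted p = 0.062) and with quantile normalization (adjusted p = 0.13).

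For LLC minus colon26 in EGFP-high cells, no filter gave 3 members (Ndufa12, Ndufaf5 and Ndufv3), quantile normalization 2 (Ndufa12 and Ndufv3), the mean of probe sets 2 (Ndufaf5 and Ndufv3), the replicate block shared by the lines 20, and leaving out an array 0 in each case. In EGFP-low cells a filter of 7 and median centring each gave 1 (Ndufa12), the shared block 18, and leaving out an array 0 to 3. Median centring moved the median of all genes in EGFP-low cells to 0.12, against -0.07 as deposited. Gins1 lost its call in colon26 with quantile normalization (0.90, adjusted p = 0.080, limma) and without either colon26 pair (adjusted p = 0.053 and 0.35), and in LLC without the second pair (adjusted p = 0.052). Without the replicate block its adjusted p was 0.23 in LLC and 0.64 in colon26. The causes of these shifts were not tested. With 2 arrays a group, changes smaller than about 0.42 in the mean of both lines and 0.62 in LLC were not called for any gene.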

Other observations

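Some symbols of the respiratory chain lie only on probe sets that carry several symbols, so their signal cannot be split between the copies. The brighter probe set of Ndufa11 and its copy Ndufa11b, a complex I subunit, had log2 values of 7.13 and 10.28 in LLC high, 6.80 and 9.70 in LLC low, 6.63 and 9.67 in colon26 high, and 5.70 and 9.35 in colon26 low cells. High lay above low in all 4 pairs (0.32, 0.57, 0.93 and 0.32). The probe set of Ndufs6 and Ndufs6b had pair differences of 0.33 and 0.39 in LLC and -0.10 and 0.46 in colon26. The brighter probe set of Ndufb4, Ndufb4b and Ndufb4c lay between 9.82 and 10.27 on all arrays, with pair differences of -0.04 and 0.04 in LLC and -0.17 and 0.23 in colon26. These values were not tested.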
